A study of Homo sapiens with 2 samples.

Results

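The genes described here are the serpins, a superfamily of serine protease inhibitors, together with the plasminogen activators PLAU and PLAT and the urokinase receptor gene PLAUR. They were taken as every gene whose single symbol in the platform annotation starts with SERPIN followed by a clade letter and a number, or is one of those other three. This gave 34 genes with 55 probe sets, of 19775 genes and 54613 probe sets compared in all. Each gene is described by its main probe set, which was chosen by the highest mean level of both arrays, and no gene was chosen on its difference by that rule. The family itself and the related gene lists were, however, chosen with earlier results of these data known. QGP1 is an established human cell line from a pancreatic neuroendocrine tumour. The ALDH high sample was QGP1 cells with high aldehyde dehydrogenase activity, collected by fluorescence-activated sorting, and the control sample was control QGP1 cells. Both samples were of the same line, and nothing in the sources used here says whether the control cells were also sorted. There was 1 array per group, so no difference below has a replicate check, a test or a p-value.

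Most serpins trap a protease by offering a flexible reactive loop as bait: the protease cuts the loop, the serpin refolds, and the protease is locked in a distorted, inactive complex. Others have lost this activity and carry hormones, fold collagen or act in ways not yet settled. Urokinase (PLAU) and tissue-type plasminogen activator (PLAT) cut plasminogen to plasmin, which dissolves fibrin and matrix, and PLAUR holds urokinase at the cell surface. Liver cells are the main source of the plasma serpins, whereas most clade B serpins work inside cells.

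On the log2 scale of the robust multi-array average (RMA), both arrays had a median of 5.68. The hybridisation controls, 18 probe sets for RNAs added after labelling, differed by 0.05 on average, and the 24 poly-A control probe sets by 0.32. The part of that poly-A difference in the values below was not tested. The line's neuroendocrine character was visible on both arrays. Of 12 listed neuroendocrine markers, 10 were measured, with a median level of 11.68 in ALDH high and 11.74 in control. Over all genes the medians were 6.79 in ALDH high and 6.85 in control. The granule protein gene CHGA was at 11.50 in ALDH high and 11.70 in control. All 10 were at or above the median probe set level of 5.68, and SYP was the dimmest, at 6.48 on both arrays. Of the 34 genes, 11 had a mean level at or above the median probe set level and 23 did not. Among all 19775 genes, 12529 had, since each gene is read by its brightest probe set. Counts of markers and of clade A genes at this level are to be read beside that share. The deposited values carry no detection calls, so for the 23 dim genes a level cannot be told from absence. The median is not a detection limit, and a level just above it may also be background. In 10 of those 23 dim genes the difference had a size that 20 or more probe sets of the array shared to 6 decimals, the largest such size being the 0.38 of SERPINF1.

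A small number of members stood far from the rest. PLAU and SERPINB5 were over 2-fold higher in ALDH high, 2 of 34 genes, where 0.465% of all genes were. SERPINA3 was over 2-fold lower, 1 of 34 genes, where 1.23% of all genes were. SERPINH1 was the only further member beyond 1.5-fold, where 2.61% of all genes were more than 1.5-fold higher and 4.21% more than 1.5-fold lower. All 4 were among the 11 members at or above the median level. Among the 12529 genes at that level, 0.607% were more than 2-fold higher and 1.66% more than 2-fold lower, and at 1.5-fold the shares were 3.53% and 5.52%. The median difference over the 34 genes, ALDH high minus control, was -0.02, against -0.005 over all genes, with 15 members above 0, 17 below and 2 equal. The first values inside 1.5-fold were those of SERPINB9 (-0.58) and SERPINA6 (-0.54).

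**Figure D1:**
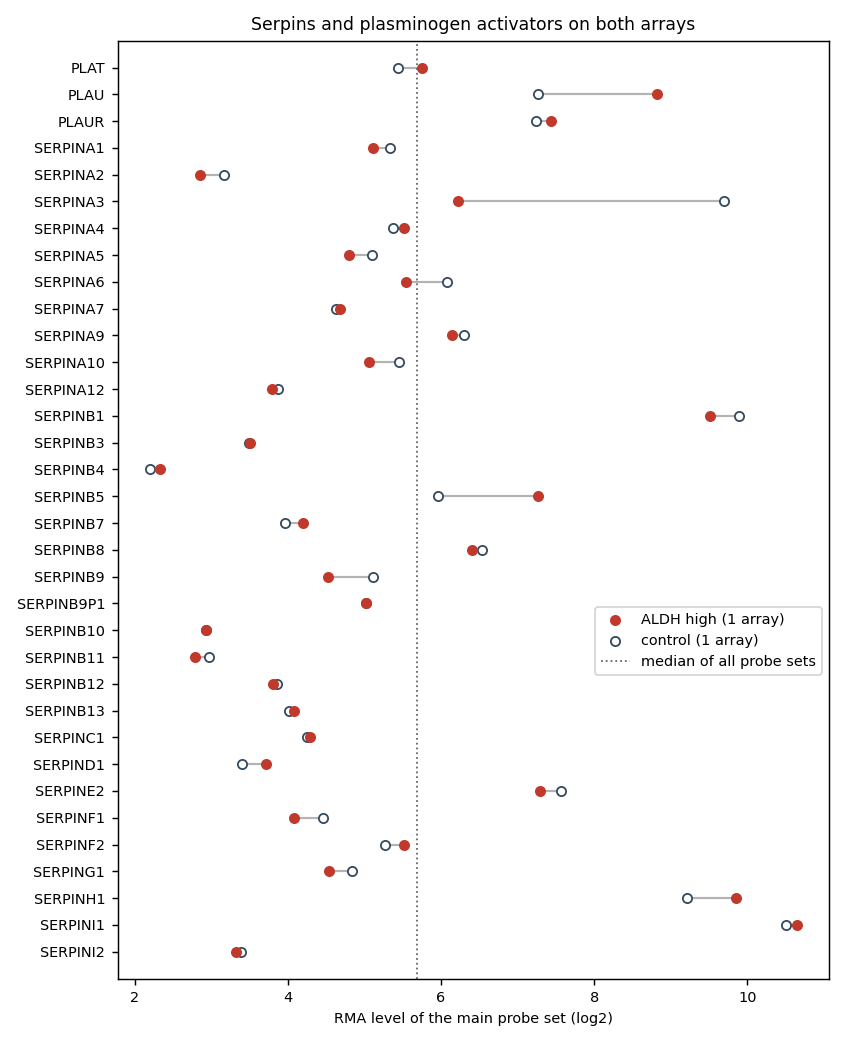
RMA level (log2, horizontal axis) of the main probe set of each of the 34 genes on the ALDH high array (filled) and the control array (open), with a dotted line at the median level of all probe sets, 5.68. The wide gaps are those of SERPINA3 (6.22 against 9.69), PLAU (8.82 against 7.26) and SERPINB5 (7.26 against 5.97).

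The stretches upstream of the start of the genes beyond 1.5-fold are shown so that the letters in front of each can be read beside its values. Each is the 250 bases before a RefSeq start in GRCh38.p14, written 5′ to 3′ on the strand of the gene, which is the plus strand for all. Capitals mark matches to any of 6 motifs searched on both strands. The TATA box was searched as TATAAA and the GC box, which binds Sp1, as GGGCGG. The AP-1 motif, bound by Fos and Jun proteins, was searched as TGANTCA. The heat shock element was GAANNTTC, the STAT motif TTCNNNGAA and the cyclic AMP response element TGACGTCA. PLAU has 2 starts in the table, at windows chr10:73910360-73910609 and chr10:73910882-73911131. SERPINB5 is at chr18:63476708-63476957, SERPINH1 at chr11:75562003-75562252 (the more upstream of its 2 starts) and SERPINA3 at chr14:94612141-94612390.
PLAU, upstream start: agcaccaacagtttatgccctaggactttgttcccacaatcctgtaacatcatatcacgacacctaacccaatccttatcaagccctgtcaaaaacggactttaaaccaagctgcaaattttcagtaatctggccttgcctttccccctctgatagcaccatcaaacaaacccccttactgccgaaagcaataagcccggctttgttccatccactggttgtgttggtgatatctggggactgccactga
PLAU, downstream start: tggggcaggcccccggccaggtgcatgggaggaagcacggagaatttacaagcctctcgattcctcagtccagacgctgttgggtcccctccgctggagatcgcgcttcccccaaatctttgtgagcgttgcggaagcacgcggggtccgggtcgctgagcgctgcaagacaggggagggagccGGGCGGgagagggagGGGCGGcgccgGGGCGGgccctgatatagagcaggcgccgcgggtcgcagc
SERPINB5: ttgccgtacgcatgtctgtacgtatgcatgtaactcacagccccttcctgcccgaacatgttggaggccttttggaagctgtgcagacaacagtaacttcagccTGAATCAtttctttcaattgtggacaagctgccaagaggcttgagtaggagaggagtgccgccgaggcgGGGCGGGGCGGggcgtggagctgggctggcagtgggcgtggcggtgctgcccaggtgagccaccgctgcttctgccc
SERPINH1: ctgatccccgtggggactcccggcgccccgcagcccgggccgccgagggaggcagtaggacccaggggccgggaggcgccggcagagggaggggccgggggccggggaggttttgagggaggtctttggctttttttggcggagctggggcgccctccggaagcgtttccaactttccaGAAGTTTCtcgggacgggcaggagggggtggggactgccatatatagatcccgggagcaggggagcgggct
SERPINA3: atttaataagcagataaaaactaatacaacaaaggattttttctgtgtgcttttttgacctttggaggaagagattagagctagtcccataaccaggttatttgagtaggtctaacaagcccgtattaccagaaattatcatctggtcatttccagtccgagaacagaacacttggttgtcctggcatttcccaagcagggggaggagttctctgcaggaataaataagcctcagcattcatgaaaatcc

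The downstream PLAU window held 3 GC boxes, the closest at 35 to 40 bases before the start, and the upstream PLAU window held no match. The SERPINB5 window held 2 GC boxes that overlap in 1 base, at 67 to 77 bases before the start, and an AP-1 match at 140 to 146 bases. SERPINH1 had a heat shock element match at 64 to 71 bases before its upstream start. Its other window held 1 GC box and no heat shock element. The SERPINA3 window held none of the 6 motifs and was the poorest in G and C of those shown, at 40.0%, against 46.8% and 68.8% for PLAU, 60.0% for SERPINB5 and 70.0% for SERPINH1. Among 35116 windows of the same length, 42.6% held a GC box, 6.57% an AP-1 match and 5.78% a heat shock element. TATAAA was found in 10.7%, TTCNNNGAA in 6.57% and TGACGTCA in 1.65%. Of the 36 windows that the RefSeq table lists for 25 of the 34 genes, 3 held a heat shock element, 10 a GC box, 8 an AP-1 match, 7 a STAT match, 7 a TATA box and 0 the cyclic AMP response element. A match is a description of letters and does not show that a factor binds there.

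PLAU, which encodes urokinase, had a level of 8.82 on the ALDH high array and 7.26 on the control array. That is 2.94-fold higher in ALDH high, the 25th largest positive difference among 19775 genes. Its second probe set pointed the same way, at 7.72 in ALDH high and 6.47 in control, a 2.38-fold difference. Both probe sets have IDs that mark them as able to bind more than 1 transcript, so the gene has no value when such probe sets are left out. The receptor gene PLAUR stood at 7.43 in ALDH high and 7.23 in control, 1.15-fold higher, and its 3 probe sets differed by 0.09, 0.20 and 0.24. PLAT, the tissue-type activator, was close to the median probe set level on both arrays, at 5.75 in ALDH high and 5.44 in control, 1.23-fold higher on its single probe set. Of these genes PLAU was the only one beyond 1.5-fold. The PLAUR difference of 0.20 is smaller than 0.23, the pooled SD of differences among probe sets that read the same gene. That SD measures disagreement among probe sets and not variation between samples, so it is no noise limit.

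The serpins with a value that inhibit these activators or plasmin were each within 1.5-fold. SERPINE2, protease nexin-1, which inhibits urokinase, thrombin and plasmin, had a level of 7.30 in ALDH high and 7.57 in control, 1.21-fold lower. Its second, dim probe set differed by -0.29, against -0.27 for the main one. SERPINA5, the protein C inhibitor, which also inhibits urokinase, was 1.23-fold lower at low levels, 4.79 in ALDH high and 5.10 in control. SERPINF2, the antiplasmin, which inhibits plasmin and not the activators, was 1.19-fold higher, at 5.52 in ALDH high and 5.27 in control. SERPINI1, the inhibitor of tissue-type activator, differed by 0.15. Other family members, among them SERPINB2, SERPINB6, SERPINA11 and SERPINE3, were not analysed here.

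**Figure D2:**
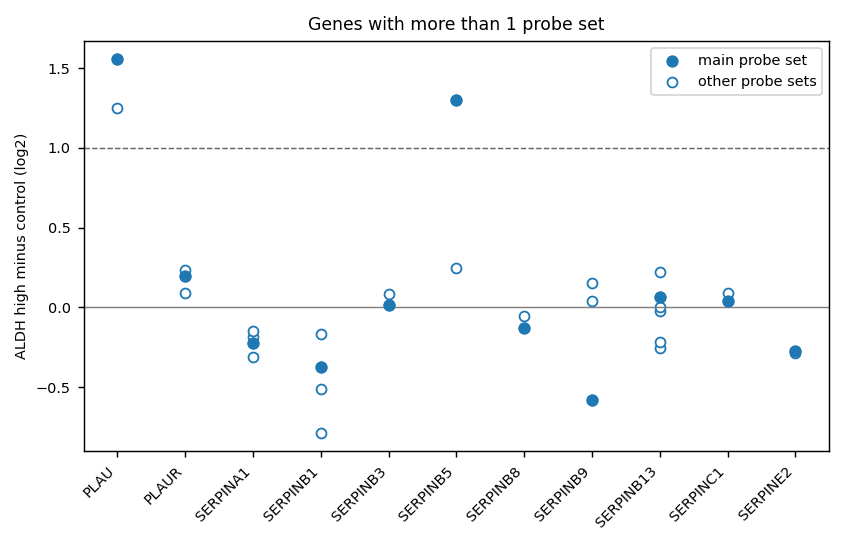
ALDH high minus control (log2, vertical axis) for every probe set of the 11 genes that have more than 1, with the main probe set filled and the others open. Both PLAU probe sets lie above 1 (1.56 and 1.25), whereas those of SERPINB5 (1.30 and 0.25) and SERPINB9 (-0.58 to 0.15) are spread.

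Most other genes of plasmin formation and clotting differed little. None of the 8 genes for plasminogen and its surface receptors was beyond 1.5-fold on its main probe set (all genes: 2.61% higher, 4.21% lower). The largest differences among those were those of the plasminogen receptor gene PLGRKT (-0.27) and of HMGB1 (0.23), a nuclear protein that also binds plasminogen outside cells. For S100A10, a subunit of a surface plasminogen receptor, the main probe set differed by 0.17 and the highest by 0.84. The 25 other fibrinolysis and clotting genes had a median of -0.09. Of these, 0 were more than 2-fold higher (all genes: 0.465%) and 1 more than 2-fold lower (all genes: 1.23%). The lower one was F5, clotting factor V, at 9.47 in ALDH high and 10.51 in control, 2.06-fold lower, and its 3 probe sets ranged from -1.29 to -1.02. PROS1, protein S, a cofactor that limits clotting, was 1.69-fold lower (9.02 in ALDH high, 9.77 in control). TFPI, the tissue factor pathway inhibitor, was 1.60-fold lower at low levels, with its 5 probe sets from -0.68 to 0.09, and F10, factor X, was 1.51-fold higher at low levels (4.27 in ALDH high, 3.67 in control).

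Another 17 measured genes were for partners of the urokinase receptor and for the receptors that clear protease and inhibitor complexes, with a median of -0.08. Of these, 0 were more than 2-fold higher (all genes: 0.465%) and 1 more than 2-fold lower (all genes: 1.23%). ITGB5, an integrin chain that binds vitronectin, was the lower one, at 8.02 in ALDH high and 9.02 in control (2.01-fold), with its 4 probe sets from -1.01 to -0.49. EGFR, the epidermal growth factor receptor, was 1.55-fold higher by its main probe set (8.80 in ALDH high, 8.16 in control), while its 9 probe sets ranged from -0.17 to 0.63.

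SERPINA3, the α1-antichymotrypsin that inhibits cathepsin G and chymase and is a plasma acute phase protein, was at 6.22 in ALDH high and 9.69 in control. The difference of -3.47 was the 3rd largest negative one among 19775 genes, 11.1-fold lower, and it rests on 1 probe set. With a pseudocount of 32 added on the linear scale it was -3.01. The other clade A genes were much closer between the arrays. Of the 10 clade A genes, 8 had a negative difference, where 50.3% of all genes did, and their median was -0.26, but only 3 of the 10 were at or above the median probe set level.

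SERPINA1, α1-antitrypsin, the main plasma inhibitor of neutrophil elastase, was dim, at 5.11 in ALDH high and 5.34 in control. All 4 of its probe sets differed in the same direction, from -0.31 to -0.15. SERPINA6, the cortisol carrier of plasma, was 1.45-fold lower (5.55 in ALDH high, 6.08 in control). SERPINA10, which inhibits factor Xa with protein Z, was 1.32-fold lower (5.06 in ALDH high, 5.46 in control). The remaining clade A genes SERPINA2, SERPINA4, SERPINA7, SERPINA9 and SERPINA12 ranged from -0.31 to 0.15, and SERPINA2 is annotated as a transcribed pseudogene. None of them came near the size of the SERPINA3 difference.

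Other plasma proteins of the acute phase list behaved unevenly. Of 19 measured, with a median of -0.09, 0 were more than 2-fold higher (all genes: 0.465%) and 2 more than 2-fold lower (all genes: 1.23%). These were CP, the copper carrier ceruloplasmin, at 5.23 in ALDH high and 8.52 in control (9.79-fold lower), and LCN2, an iron-binding lipocalin, at 5.63 in ALDH high and 8.04 in control (5.33-fold lower). All 4 CP probe sets were beyond 2-fold lower, from -3.29 to -1.51. Hepatocyte markers, SERPINA1 among them, were nearly level: none of 10 was beyond 1.5-fold (all genes: 2.61% higher, 4.21% lower). Of the 10, 3 were at or above the median probe set level, and the summed level of the 10 was 8.86 in ALDH high and 8.99 in control (log2). Albumin (ALB) was dim and equal on both arrays, at 3.36. Both samples were of the QGP1 line, so these markers were read as levels in that line. In bulk samples, fewer cells with a transcript and less of it per cell cannot be told apart.

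SERPINB5, maspin, a clade B serpin of epithelial cells that does not act as a classical protease inhibitor, was at 7.26 in ALDH high and 5.97 in control. It was 2.46-fold higher in ALDH high, the 36th largest positive difference. Its second probe set was dim, at 2.61 in ALDH high and 2.37 in control, and the mean of both probe sets differed by 0.77. With the pseudocount the difference was 0.97. Neither value is beyond 2-fold.

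Maspin is a gene of basal and squamous epithelia, whose markers were also read. Of 6 measured, 2 were over 2-fold higher (all genes: 0.465%) and 0 over 2-fold lower (all genes: 1.23%). Of the 6, 3 were at or above the median probe set level, and the summed level of the 6 was 9.05 in ALDH high and 7.30 in control (log2). KRT14 was at 8.29 in ALDH high and 4.33 in control, KRT13 at 6.45 in ALDH high and 5.35 in control, and KRT5 at 6.32 in ALDH high and 5.44 in control. These keratins are intermediate filament proteins. The cornified envelope gene IVL (3.98 in ALDH high, 4.12 in control) and SPRR1B (3.71 in ALDH high, 3.54 in control) were dim on both arrays, as was the desmosomal cadherin DSG3 (4.29 in ALDH high, 4.56 in control). Their part in the SERPINB5 difference was not tested.

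Of the other clade B serpins measured on chromosome 18, all but SERPINB8 were below the median probe set level, and none was beyond 1.5-fold. SERPINB3 and SERPINB4, the squamous cell carcinoma antigens, are near-identical copies, so their probes can share transcripts. SERPINB3 was at 3.51 in ALDH high and 3.49 in control, and SERPINB4 at 2.34 in ALDH high and 2.20 in control. A probe set that the annotation gives to both genes, and that is therefore in no count, was at 4.10 in ALDH high and 4.38 in control. SERPINB7, SERPINB10, SERPINB11, SERPINB12 and SERPINB13 ranged from -0.18 to 0.23, and the 6 probe sets of SERPINB13 from -0.25 to 0.23.

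The intracellular inhibitors of leukocyte proteases had negative differences on their main probe sets. SERPINB1, which inhibits neutrophil elastase and cathepsin G, was bright, at 9.52 in ALDH high and 9.89 in control, 1.29-fold lower, and all 4 of its probe sets were lower, from -0.79 to -0.17. SERPINB9, the inhibitor of granzyme B, was at 4.53 in ALDH high and 5.11 in control, a difference of -0.58. Its next probe set pointed the other way (4.83 in ALDH high, 4.68 in control), so the direction is not settled. Of 9 measured leukocyte and platelet markers, 0 were more than 2-fold higher (all genes: 0.465%) and 2 more than 2-fold lower (all genes: 1.23%). Of the 9, 5 were at or above the median probe set level, and the summed level was 8.50 in ALDH high and 8.73 in control (log2). The 2 lower ones were dim. LYZ, lysozyme, was at 4.34 in ALDH high and 5.67 in control, and CD14, a monocyte receptor, at 4.30 in ALDH high and 5.32 in control. Among the 9 markers, 4 differences were positive and 5 negative, with a median of -0.04. PTPRC was dim, at 3.56 in ALDH high and 3.34 in control. These markers too were read as levels in QGP1 cells, and their relation to the SERPINB1 and SERPINB9 values was not tested. SERPINB8 was at 6.41 in ALDH high and 6.54 in control, and the pseudogene SERPINB9P1 was equal on both arrays at 5.02.

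**Figure D3:**
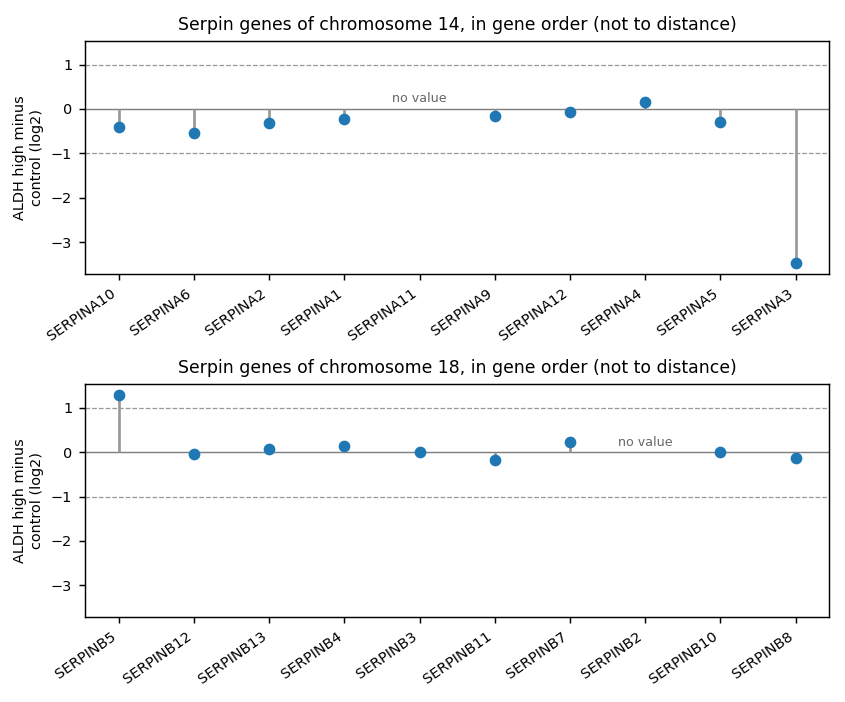
ALDH high minus control (log2, vertical axis) for the serpin genes of chromosomes 14 and 18 in their order along the chromosome, spaced evenly and not by distance. SERPINA3 (-3.47) and SERPINB5 (1.30) each stand at one end of their row, and every other gene with a value lies between -0.54 and 0.23.

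Position along the chromosome gave no shared shift of the size seen for SERPINA3 or SERPINB5. In the RefSeq gene order, 9 measured clade A genes lie together on chromosome 14, and 8 of them had negative differences, with a median of -0.30. SERPINA5, next to SERPINA3, differed by -0.30. On chromosome 18, 9 measured clade B genes had a median of 0.01, and SERPINB12, next to SERPINB5, differed by -0.04. SERPINB1 and SERPINB9, which lie near each other on chromosome 6, differed by -0.37 and -0.58.

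SERPINH1, the endoplasmic reticulum chaperone HSP47 that is dedicated to folding collagen, was at 9.85 in ALDH high and 9.21 in control. It was 1.57-fold higher on a single probe set that can bind more than 1 transcript. Of 18 measured collagen chaperones and modifying enzymes, 15 had negative differences and 3 positive ones, where 50.3% of all genes were negative. Among the 18, with a median of -0.24, 0 were more than 2-fold higher (all genes: 0.465%) and 1 more than 2-fold lower (all genes: 1.23%). That one was KDELR3, a receptor that returns chaperones to the endoplasmic reticulum, at 6.11 in ALDH high and 7.62 in control (2.85-fold lower). P4HA1, a catalytic subunit of the collagen prolyl hydroxylase, was 1.64-fold lower, although its 2 probe sets differed by -0.72 and -0.12.

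SERPINI1, neuroserpin, the inhibitor of tissue-type plasminogen activator made by neurons and neuroendocrine cells, was bright and close between the arrays, at 10.65 in ALDH high and 10.50 in control. Its difference of 0.15 is also smaller than that pooled SD of 0.23. SERPINI2, which is known from the pancreas, was dim, at 3.32 in ALDH high and 3.39 in control. The plasma serpins of the other clades were also dim. SERPINC1, antithrombin, was at 4.29 in ALDH high and 4.25 in control. SERPIND1, heparin cofactor II, was 1.24-fold higher, at 3.72 in ALDH high and 3.41 in control. SERPINF1, the pigment epithelium-derived factor, was 1.30-fold lower, at 4.08 in ALDH high and 4.46 in control, and SERPING1, the C1 inhibitor, 1.23-fold lower, at 4.53 in ALDH high and 4.83 in control.

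**Figure D4:**
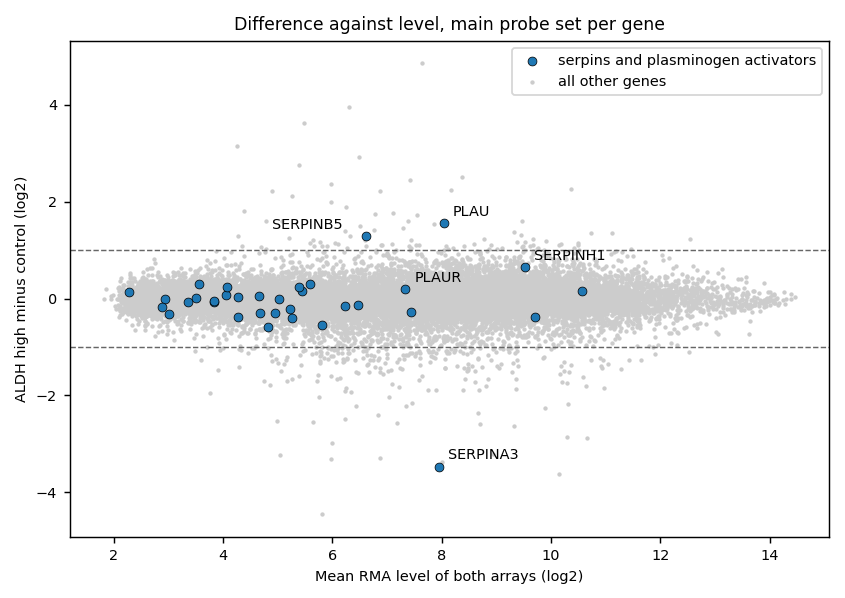
ALDH high minus control (log2, vertical axis) against the mean RMA level of both arrays (log2, horizontal axis), one point per gene, with the serpins and plasminogen activators in blue and all other genes in grey. Dashed lines mark 2-fold; PLAU, SERPINB5 and SERPINA3 lie outside them, and the 23 members below the median level of 5.68 stay between -0.58 and 0.31.

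Proteases that serpins inhibit, and inhibitors of other families, were read beside them. Of 35 measured target proteases, with a median of -0.07, 0 were more than 2-fold higher (all genes: 0.465%) and 2 more than 2-fold lower (all genes: 1.23%). CTSS, the lysosomal cysteine protease cathepsin S, was at 5.69 in ALDH high and 7.19 in control (2.84-fold lower), but its 3 probe sets ranged from -1.51 to -0.14. PRSS8, prostasin, a membrane-anchored serine protease of epithelia, was at 6.05 in ALDH high and 7.21 in control (2.23-fold lower). CTSL, cathepsin L, was at 8.87 in ALDH high and 9.46 in control, a difference of -0.59.

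The 32 measured inhibitors from other families had a median of -0.08. Of these, 0 were more than 2-fold higher (all genes: 0.465%) and 2 more than 2-fold lower (all genes: 1.23%). CSTA, cystatin A, an intracellular inhibitor of cysteine proteases, was at 4.99 in ALDH high and 7.47 in control (5.57-fold lower), and SLPI, the secretory leukocyte protease inhibitor, at 6.28 in ALDH high and 7.77 in control (2.81-fold lower). BIRC5, survivin, which has its main role in cell division, was 1.71-fold higher (11.22 in ALDH high, 10.44 in control). TIMP2, a metalloprotease inhibitor, was 1.54-fold lower, with its 3 probe sets from -0.63 to -0.10. APP, whose longer isoforms carry an inhibitor domain, was 1.51-fold lower, with its 3 probe sets from -0.60 to -0.21. CSTA, SLPI and PRSS8 each rest on 1 probe set.

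**Figure D5:**
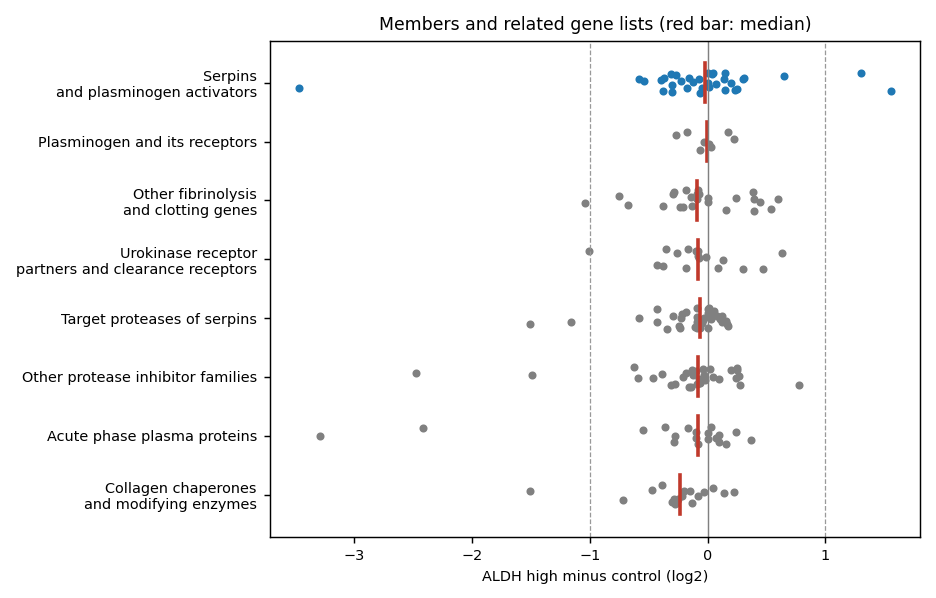
ALDH high minus control (log2, horizontal axis) for the serpins and plasminogen activators (top row, blue) and 7 related gene lists (grey), one point per gene and a red bar at each median. The medians lie between -0.24 (collagen chaperones and modifying enzymes) and -0.01 (plasminogen and its receptors), with -0.02 for the serpins and plasminogen activators. All 7 lists have 0 genes over 2-fold higher. Of all genes 0.465% were, so a count of 0 in lists this short is not a result about them.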

How the data were processed

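Gene expression was measured on 2 Affymetrix arrays, 1 per group. The authors deposited log2 levels per probe set, and the submitters' processing notes name RMA as the method. That method corrects background, quantile-normalises arrays and summarises probes by median polish. No version of it is given in the sources used here. Of 54675 probe sets, 62 controls were left out. Names came from GEO's platform annotation, with symbols checked through the Entrez ID against a RefSeq gene table (GRCh38.p14). It changed 0 member symbols. Upstream sequences are RefSeq's, and PLAT was left out of them.

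For each main probe set the control value was subtracted from the ALDH high value on the log2 scale, with no test. A difference over 1 (2-fold, the series description's threshold) or over 1.5-fold was counted beside its share over all genes. Members and lists were chosen with earlier results of these data known. Genes named by rule were PLAU, PLAUR, PLAT, SERPINE2, SERPINB2, members over 1.5-fold, and in each list those over 1.5-fold (at most 6) and at least the largest pair. Other members were named after their values were seen, as were the markers named. No interval can be given, since the number of arrays limits the precision. Simulated data with known folds were used to find what share of genes passes the 2-fold threshold. The choice of threshold was not tested. Python 3.11.15, pandas and matplotlib were used. Alternatives were probe set summaries, shared-target probe sets (IDs ending in _s_at or _x_at) left out, a pseudocount of 32, a level filter, centring and a 1.5-fold threshold.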

Additional observations from a re-analysis of the deposited data

How the results depend on the processing

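The count of members over 2-fold higher was 1, against 2 as reported, with the mean of all probe sets, with the median of all probe sets, with the pseudocount of 32 and without shared-target probe sets. Under the first 3 of these PLAU stayed over 2-fold (1.40, 1.40 and 1.38) and SERPINB5 did not (0.77, 0.77 and 0.97). Without shared-target probe sets PLAU had no value and SERPINB5 remained, and 7 members in all had none. With the level filter or with arrays centred on their medians the count was 2, and at 1.5-fold it was 3. The count over 2-fold lower was 1 under all 7 alternatives, with SERPINA3 at -3.47 to -3.01. The members' median lay between -0.13 (level filter) and -0.006 (median of all probe sets). Over all genes the counts at 2-fold ranged from 50 to 94 higher and from 127 to 241 lower under the alternatives, against 92 and 243 as reported. Of 163 values of single members under alternatives, 9 moved by more than the pooled SD of 0.23, and 0 of the members over 2-fold changed sign. Many of these values could hardly move: 23 members have 1 probe set, and centring shifts every gene by 0.004. A pseudocount or that centring cannot change the sign of a member over 2-fold, and SERPINA3 has 1 probe set. These counts therefore say little about stability. The median over the SERPINB9 probe sets was 0.04, and the cause was not tested. No paired analysis was possible because each group has 1 array. Dim probe sets limit 23 of 34 members.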
